A study of Mus musculus with 6 samples.

Results

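The Hippo-YAP genes examined here were the transcriptional coactivators Yap1 and Wwtr1 (TAZ), the DNA-binding factor Tead1, the kinases Lats1 and Lats2, the adaptors Ajuba and Amotl2, and the target genes Ccn1 (Cyr61), Ccn2 (Ctgf) and Ankrd1. They were taken by gene name from a list that uses no measured value, although it was drawn up with earlier results of these data known, and are 10 of the 55809 genes counted. All 10 passed the filter on low counts, so that each was among the 15733 genes tested. RNA was sequenced from HC11 cells, an established line of mouse mammary epithelial cells that the study uses as a luminal line. One set of 3 libraries came from cells in medium with BMP7, a secreted ligand of the bone morphogenetic protein family, and 3 libraries came from cells in medium without it (Ctrl). The cells carried no other treatment or allele by the labels. The methods describe starving HC11 cells before stimulation with BMP7, give more than 1 duration, and do not say which was used for sequencing. Every library came from the same cell line, and nothing says that the libraries were separate cultures, so that p-values measure the spread between these samples, which may be technical.

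In the Hippo pathway, the MST kinases and their partners activate the LATS kinases, which phosphorylate YAP and TAZ and thereby keep them in the cytoplasm or send them for degradation. YAP and TAZ that escape this control enter the nucleus and bind TEAD factors, which recognise a short motif in promoters and enhancers and drive genes such as Ccn1, Ccn2 and Ankrd1. Angiomotins such as Amotl2 bind YAP and hold it at junctions, and LIM-domain proteins such as Ajuba bind LATS kinases and restrain them. The pathway responds to cell density, cell shape and tension, and YAP and TAZ are known in the mammary gland for roles in basal and stem-like cells. Much of its regulation is by phosphorylation and localisation, which mRNA levels do not measure.

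With BMP7, 3 of the 10 genes were higher, 1 was lower and 6 did not pass the test. The 3 that rose were the target genes Ccn1 (3.34-fold), Ankrd1 (1.83-fold) and Ccn2 (1.73-fold), and the gene that fell was Ajuba (0.814-fold). Neither coactivator, neither LATS kinase, nor Tead1 or Amotl2 passed. A gene was called at a Benjamini-Hochberg adjusted p below 0.05 in edgeR's quasi-likelihood test and a fold change above 1.2 in either direction, and 11.4% of all genes tested met this. Of all genes, 5.99% were called higher and 5.38% lower. With the adjusted p alone, the same 4 of 10 passed, against 13.7% of all genes. In 5 of the 10 the Ctrl and BMP7 libraries did not overlap, against 29.8% of all genes. The median log2 fold change of the 10 genes was 0.04, and that of all genes tested was -0.01.

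**Figure D1:**
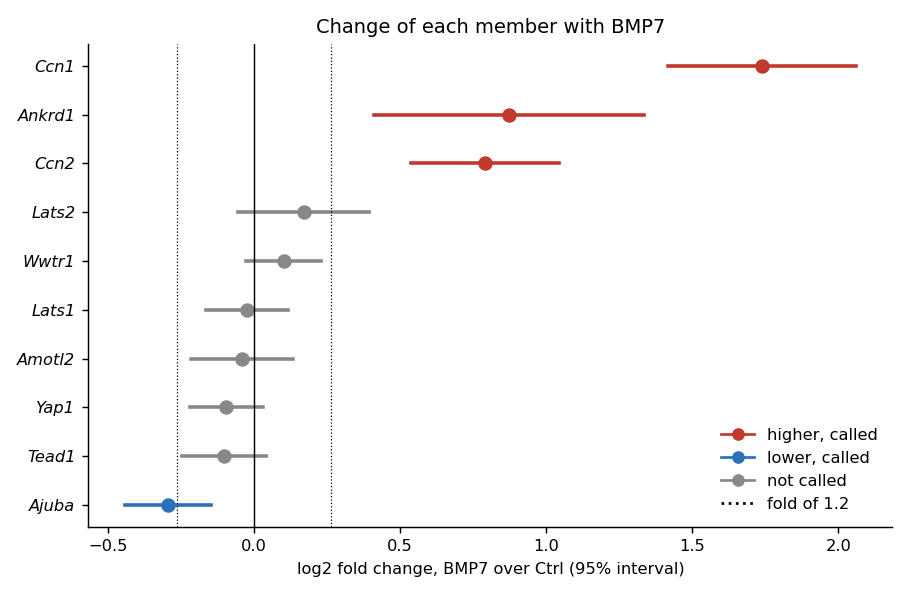
Log2 fold change of each of the 10 genes, BMP7 over Ctrl, from edgeR with its 95% confidence interval (horizontal bars) and 3 libraries a group. The dotted lines mark the fold of 1.2 in either direction. Ccn1, Ankrd1 and Ccn2 lie to the right with intervals that start at 0.41 or above, Ajuba lies to the left, and the other 6 intervals include 0.

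Between 14607938 and 23748970 fragments per library were assigned to genes. Levels are given as CPM, counts scaled to library size by edgeR's TMM method, and libraries are named by the numbers of their columns (1, 2 and 3 for Ctrl, and 1, 3 and 4 for BMP7). As a check of the labels, the BMP target genes Id1, Id2 and Id3 were higher with BMP7 by 4.28, 2.82 and 6.31 on the log2 scale. The 7 epithelial markers summed to 7810 to 7970 CPM in Ctrl and 8100 to 9460 CPM with BMP7, with 1 called higher (Krt14) and 3 lower (Epcam, Cdh1 and Krt18). The basal keratins Krt5 and Krt14 and the junction genes Epcam and Cdh1 were at 460 CPM or above in every library. The luminal keratins were lower, Krt8 at 57.9 to 68.9 CPM and Krt18 at 27.1 to 51.1 CPM, and Cldn7 was at 0.661 to 1.97 CPM. The BMP7 libraries were not alike in genes of other cell types. The summed level of 10 adipocyte genes was 12.8 to 22.1 CPM in Ctrl and 22.9 CPM in BMP7 replicate 1. In replicates 3 and 4 it was 78.8 and 69.4 CPM, and 7 of the 8 genes tested were called higher. The summed level of 12 macrophage genes was 50.2 to 54.5 CPM in Ctrl and 52.5 CPM in BMP7 replicate 1. In replicates 3 and 4 it was 26.2 and 24.8 CPM, and 3 of the 9 genes tested were called lower (Lyz2, Ptprc and Itgam). Most of this difference in the sum was Lyz2, at 25.5 to 26.6 CPM in Ctrl and 6.76 and 6.94 CPM in replicates 3 and 4. Cd68 was at 10.9 to 11.6 CPM in Ctrl and 12.4 to 15.6 CPM with BMP7. The summed level of 10 fibroblast genes was 115 to 126 CPM in Ctrl and 103 to 122 CPM with BMP7, most of it Col1a1 and Pdgfra. Of the 7 tested, 4 were called higher and 1 lower. Among all genes tested, 5.99% were called higher and 5.38% lower. Of the genes called higher, Col1a2 and Col3a1 were above Ctrl in every BMP7 library. Dpt was at 0.196 to 0.53 CPM in Ctrl and at 0.279, 2.4 and 1.98 CPM in BMP7 replicates 1, 3 and 4. Dcn was at 0.737 to 1.73 CPM in Ctrl and at 1.74, 4.44 and 4.9 CPM in these replicates. The 6 endothelial genes summed to 13.8 to 16.1 CPM in Ctrl and 24.5 to 26.5 CPM with BMP7, nearly all of it Pecam1, while Kdr and Emcn had at most 3 counts in any library. None of the marker genes was at 0 counts in every library. In bulk RNA, fewer cells of a type and less RNA per cell cannot be told apart. The part of these differences in the results was not tested. The called genes among the 10 Hippo-YAP genes are therefore also given for BMP7 replicate 1 alone against Ctrl. That comparison assumes that the lone library varies as the Ctrl libraries do. The called genes of the other pathway lists were not examined in this way.

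The promoters of the Hippo-YAP genes are shown because TEAD factors bind the motif CATTCC, which reads GGAATG on the other strand. RefSeq promoters on GRCm38.p6 (the 250 bases before to 50 after each start) were matched for 8 of the 10 genes, with none for Tead1 and Ccn2. The motif was found in 7 of these 8 genes, and in 14.7% of 32851 promoters (16.6% of 27025 genes). It lay before the start in 6 genes, within the transcribed bases in Lats2, and was not in the window of Lats1. RefSeq gives a further start for Wwtr1, with the same motif 170 bases before it, and a further start for Lats2, with no match. The stretches around the 6 are given 5′ to 3′ on the strand of the gene, with the motif in capitals.
Ccn1 (chr3:145650063-145650108, minus strand, motif 103 bases before the start): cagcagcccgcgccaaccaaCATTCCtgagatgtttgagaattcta
Ankrd1 (chr19:36119942-36120074, minus strand, motifs 210 and 123 bases before the start): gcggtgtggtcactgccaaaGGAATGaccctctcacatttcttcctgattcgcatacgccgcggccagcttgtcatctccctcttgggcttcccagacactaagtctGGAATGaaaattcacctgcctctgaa
Ajuba (chr14:54577800-54577867, minus strand, motifs 186 and 164 bases before the start): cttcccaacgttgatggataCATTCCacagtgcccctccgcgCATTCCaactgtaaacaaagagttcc
Amotl2 (chr9:102717719-102717764, plus strand, motif 65 bases before the start): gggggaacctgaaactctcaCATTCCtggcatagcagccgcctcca
Yap1 (chr9:8004712-8004757, minus strand, motif 141 bases before the start): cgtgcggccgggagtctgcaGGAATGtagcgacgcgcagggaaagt
Wwtr1 (chr3:57576021-57576066, minus strand, motif 136 bases before the start): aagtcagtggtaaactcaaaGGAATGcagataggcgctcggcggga

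Genes with the motif before the start thus included 2 that were called higher (Ccn1 and Ankrd1), 1 that was called lower (Ajuba) and 3 that did not pass (Amotl2, Yap1 and Wwtr1). Ankrd1 and Ajuba each held it at 2 positions. A pair of motifs bound by Smad proteins, the mediators of BMP signaling, were searched in the same windows. GGCGCC, which reads the same on both strands, was in the promoters of 3 of the 8 genes (Ccn1, Amotl2 and Lats2) and in 11.9% of all promoters. CAGAC, or GTCTG on the other strand, was in 6 of the 8 (Ccn1, Ankrd1, Ajuba, Yap1, Lats1 and Lats2) and in 49.6% of all promoters. In Ankrd1, a GTCTG overlapped the nearer GGAATG by 1 base. These matches describe the letters in the windows and are not binding measurements.

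Yap1 encodes the coactivator YAP and lies at chr9:7932000-8004597 on the minus strand in the mm39 coordinates of the deposited counts. Its level was 149, 145 and 139.5 CPM in Ctrl replicates 1, 2 and 3, and 132, 132 and 141 CPM in BMP7 replicates 1, 3 and 4. BMP7 replicate 4 lay inside the Ctrl range, and the other two BMP7 libraries lay below it. The log2 fold change was -0.10 (SE 0.06, 95% interval -0.22 to 0.03, edgeR adjusted p = 0.337). The interval excluded a change of the 1.2-fold size in either direction.

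Wwtr1 encodes TAZ, the paralog of YAP, and lies at chr3:57363070-57483331 on the minus strand. It was at 120.1, 118.5 and 127 CPM in Ctrl, and at 127.3, 137 and 127.7 CPM with BMP7. The BMP7 libraries lay above all Ctrl libraries but the difference did not pass the test, with a log2 fold change of 0.10 (SE 0.06, interval -0.03 to 0.23, edgeR adjusted p = 0.317). Wwtr1 and Yap1 thus had estimates of similar size and opposite sign. The log2 ratio of Wwtr1 to Yap1, each per exon length, was 0.64, 0.66 and 0.82 in Ctrl and 0.90, 1.00 and 0.81 with BMP7. BMP7 replicate 4 overlapped the Ctrl libraries, and the mean difference of 0.195 had an exact permutation p of 0.2 (two-sided, n = 3 against 3, where the smallest possible p is 0.1).

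Tead1 encodes a TEAD factor through which YAP and TAZ reach DNA, and lies at chr7:112278525-112506014 on the plus strand. It was at 71.5, 80.3 and 81.2 CPM in Ctrl and at 70.3, 74.5 and 72.1 CPM with BMP7. Ctrl replicate 1 lay within the BMP7 range. Its log2 fold change was -0.10 (SE 0.07, interval -0.25 to 0.04, edgeR adjusted p = 0.359).

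**Figure D2:**
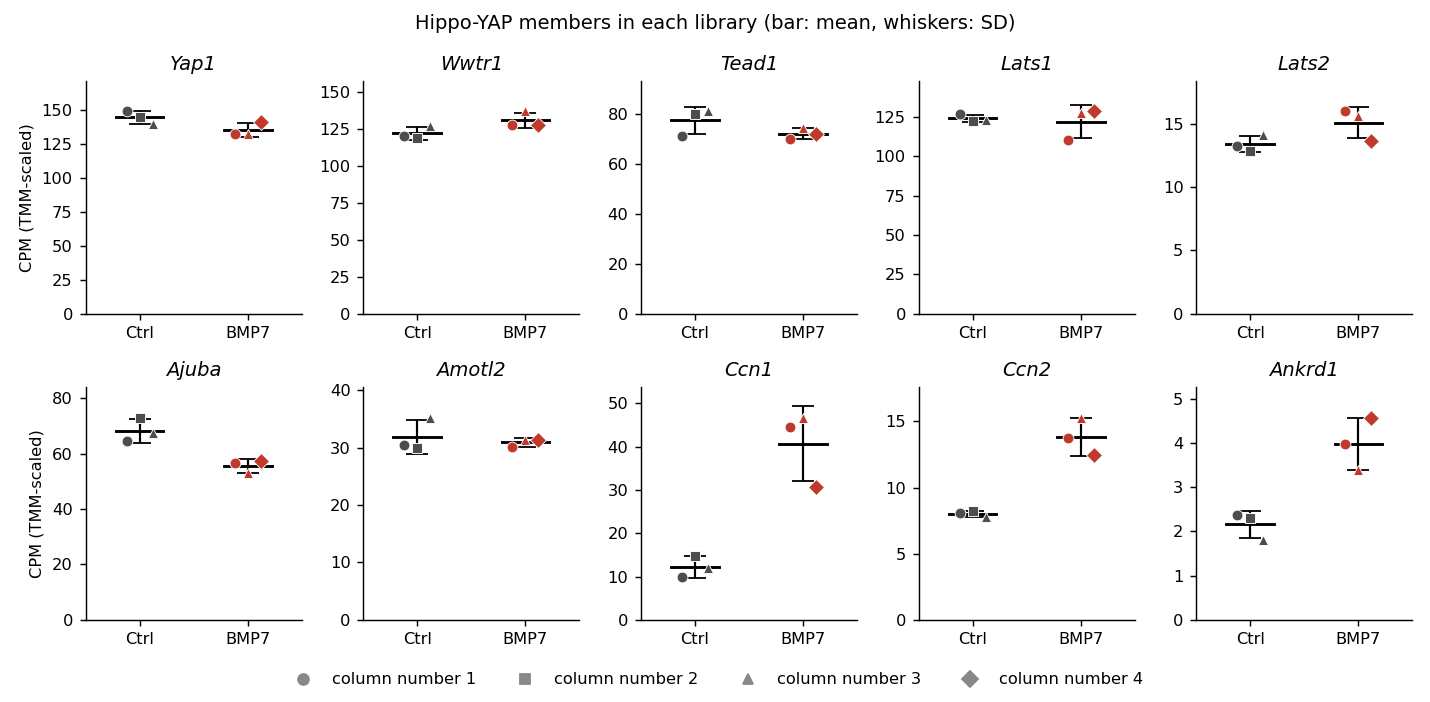
Level of each gene in each library in CPM scaled by TMM, on axes that start at 0, with black bars for the mean and whiskers for the SD of 3 libraries a group. The symbols give the number of the library's column, grey for Ctrl and red for BMP7. Ccn1, Ccn2 and Ankrd1 are higher in all 3 BMP7 libraries and Ajuba lower in all 3, while the groups overlap in 5 of the other 6 panels.

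The LATS kinases, which phosphorylate YAP and TAZ, did not pass the test. Lats1 (chr10:7556978-7592224, plus strand) was at 127, 123 and 123 CPM in Ctrl and at 110.1, 127 and 129 CPM with BMP7. BMP7 replicate 1 was the lowest of the 6 libraries, and BMP7 replicates 3 and 4 were the highest. The log2 fold change was -0.02 (SE 0.07, interval -0.17 to 0.12, edgeR adjusted p = 0.860), and its sign turned when BMP7 replicate 1 was left out, to 0.04.

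Lats2, itself listed among the genes that YAP and TAZ activate, lies at chr14:57927119-57995845 on the minus strand. It was at 13.2, 12.8 and 14.1 CPM in Ctrl and at 16.0, 15.6 and 13.7 CPM with BMP7. BMP7 replicates 1 and 3 lay above the Ctrl libraries and replicate 4 among them. The log2 fold change was 0.17 (SE 0.11, interval -0.05 to 0.39, edgeR adjusted p = 0.336), so that a rise of the 1.2-fold size was not excluded. Of its exon length, 42.4% is shared with Gm49361 on the same strand, and fragments that fell on several genes were not counted, so that its level is understated in both groups. Over the unshared length it was at 3.33 CPM per kilobase in Ctrl and 3.75 with BMP7. Per length, Lats2 was at 0.113 of Lats1 in Ctrl and at 0.129 with BMP7, on the exon length as deposited. The log2 ratio of Lats2 to Lats1 was -3.19, -3.19 and -3.06 in Ctrl and -2.72, -2.96 and -3.17 with BMP7, a difference of 0.199 (exact permutation p = 0.2, two-sided).

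Ajuba, which encodes a LIM-domain protein that binds LATS kinases, fell. It lies at chr14:54804929-54815015 on the minus strand and was at 64.5, 73.1 and 67.4 CPM in Ctrl (mean 68.3 ± 4.38, SD, n = 3) and at 56.7, 52.9 and 57.5 CPM with BMP7 (55.7 ± 2.46). All BMP7 libraries lay below all Ctrl libraries. BMP7 over Ctrl, the log2 fold change was -0.30 (SE 0.07, interval -0.44 to -0.15, edgeR adjusted p = 0.00832), a decrease in level to 0.814 of Ctrl that lies close to the threshold of fold. The edgeR adjusted p was 0.0672 without Ctrl replicate 2 and 0.0509 without BMP7 replicate 3. At log2 fold changes of -0.2451 and -0.2565, Ajuba was also under the fold threshold in these 2 fits. With BMP7 replicate 1 alone against Ctrl, the log2 fold change was -0.27. Of the other members of the Ajuba family, Limd1 and Wtip did not pass the test, at log2 fold changes of -0.11 and 0.28.

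Amotl2, an angiomotin that binds YAP and is also a YAP target, lies at chr9:102593871-102610617 on the plus strand. It was at 30.4, 29.9 and 35.3 CPM in Ctrl and at 30.04, 31.3 and 31.4 CPM with BMP7. Ctrl replicate 3 was the highest of the 6 libraries, and the other 5 lay between 29.9 and 31.4 CPM. The log2 fold change was -0.04 (SE 0.08, interval -0.22 to 0.13, edgeR adjusted p = 0.798), and it was 0.04 without Ctrl replicate 3.

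Ccn1 had the largest fold change of the 10 genes. It encodes CYR61, a secreted matricellular protein that binds integrins, and lies at chr3:145352731-145355736 on the minus strand. It was at 9.87, 14.8 and 11.98 CPM in Ctrl (mean 12.2 ± 2.44, SD, n = 3) and at 44.6, 46.7 and 30.7 CPM with BMP7 (40.7 ± 8.68). The lowest BMP7 library, replicate 4, was above the highest Ctrl library. The log2 fold change was 1.74 (SE 0.15, interval 1.42 to 2.06, edgeR adjusted p = 5.29e-07), which ranked 103rd from the top among the 15733 genes tested. These levels rest on 205, 300 and 245 counts in Ctrl and 640, 1051 and 558 counts with BMP7. With BMP7 replicate 1 alone against Ctrl, a comparison that rests on 1 treated library, the log2 fold change was 1.87 (edgeR adjusted p = 1.90e-06).

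Ccn2 encodes CTGF, a secreted protein of the same family, and lies at chr10:24471340-24474581 on the plus strand. It was at 8.04, 8.21 and 7.78 CPM in Ctrl (8.01 ± 0.219, SD, n = 3) and at 13.7, 15.3 and 12.5 CPM with BMP7 (13.8 ± 1.42). The groups did not overlap, and the Ctrl libraries spread less than the BMP7 libraries. This gave a log2 fold change of 0.79 (SE 0.12, interval 0.54 to 1.04, edgeR adjusted p = 0.000207), and 0.78 with BMP7 replicate 1 alone (edgeR adjusted p = 0.00619). Of its exon length, 24.4% is shared with the antisense gene Gm15270, which had 2 to 12 counts per library. Over the unshared length, Ccn2 was at 3.70 CPM per kilobase in Ctrl and 6.39 with BMP7.

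Ankrd1 encodes an ankyrin repeat protein of muscle and stressed cells that is used as a readout of YAP, and lies at chr19:36089361-36097499 on the minus strand. It was at 2.36, 2.31 and 1.81 CPM in Ctrl (2.16 ± 0.304, SD, n = 3) and at 3.97, 3.38 and 4.57 CPM with BMP7 (3.97 ± 0.597). The groups did not overlap, although its counts were the lowest of the 10 genes, with 49, 47 and 37 in Ctrl and 57, 76 and 83 with BMP7. edgeR estimated a log2 fold change of 0.87 (SE 0.22, interval 0.41 to 1.33, edgeR adjusted p = 0.0132). The call was lost without Ctrl replicate 3 (adjusted p = 0.0582), without BMP7 replicate 4 (0.0567) and with BMP7 replicate 1 alone (0.0964), at log2 fold changes of 0.76, 0.75 and 0.88. Of its exon length, 24.9% is shared with an antisense gene (ENSMUSG00000120701) that had 0 to 5 counts per library.

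The ratio between the 2 CCN genes was also compared. Per exon length, the log2 ratio of Ccn1 to Ccn2 was 0.80, 1.35 and 1.13 in Ctrl and 2.2, 2.11 and 1.81 with BMP7. On the exon lengths as deposited, Ccn1 was thus at 2.13 times the level of Ccn2 in Ctrl and at 4.12 times with BMP7. Fragments on the 24.4% of the Ccn2 length shared with Gm15270 were not counted, so both ratios are overstated. Over the unshared length, Ccn2 was at 3.70 CPM per kilobase in Ctrl and 6.39 with BMP7, beside 6.04 and 20.2 for Ccn1. The groups did not overlap in the ratio. Their difference of 0.95 reached the smallest p that 3 against 3 allows (exact permutation p = 0.1, two-sided). Raw counts must give the same difference, because the exon lengths are the same in every library. Of the 3 pairs compared, all had a p of 0.2 after adjustment over the pairs, and none could pass the threshold at this size.

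**Figure D3:**
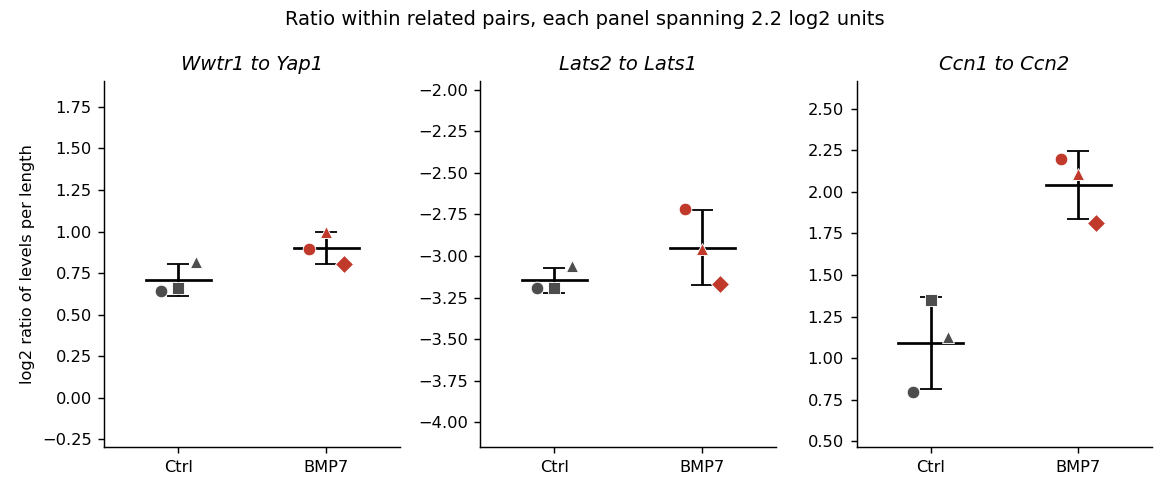
Log2 ratio of levels per exon length, as deposited, within 3 pairs of related genes, for each library, with the mean and SD of 3 libraries a group. Each panel spans the same range on the log2 scale, and circles, squares, triangles and diamonds stand for columns 1, 2, 3 and 4. The Ccn1 to Ccn2 ratio is 1.81 or above with BMP7 and 1.35 or below in Ctrl, while the groups of the other pairs overlap.

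Levels of the 10 genes were set side by side as FPKM, here CPM per kilobase of the exon length deposited with the counts. In Ctrl the order from the top was Wwtr1 (25.5 FPKM), Ajuba (18.7), Lats1 (17.0), Yap1 (15.6), Ccn1 (6.04), Tead1 (5.73), Amotl2 (5.07), Ccn2 (2.80), Lats2 (1.92) and Ankrd1 (0.748). Ccn1 and Tead1, and Tead1 and Amotl2, overlapped between their libraries, and the other neighbours in this order did not. The coactivators, Lats1 and Ajuba thus formed the upper part of the order. The lower part held Ccn1, Ccn2 and Ankrd1 together with Tead1, Amotl2 and Lats2. With BMP7, Ccn1 was at 20.2 FPKM (SD 4.30) and its mean stood in place 2, between Wwtr1 at 27.3 and Lats1 at 16.7. Its libraries ran from 15.2 to 23.1 FPKM and overlapped those of Lats1 (15.1 to 17.6), Ajuba (14.5 to 15.8) and Yap1 (14.3 to 15.3), so that the order among these 4 genes holds for their means only. The mean of Ajuba, at 15.3 FPKM, was in place 4. Ccn2 (4.83) also overlapped Amotl2 and Tead1 with BMP7, and Ccn2, Lats2 (2.16) and Ankrd1 (1.38) were in places 8, 9 and 10. These places rest on the deposited length, of which Ccn2, Lats2 and Ankrd1 share 24.4%, 42.4% and 24.9% with other genes. Over the unshared length they were at 3.70, 3.33 and 0.996 CPM per kilobase in Ctrl, in the same order. With BMP7 they were at 6.39, 3.75 and 1.83, so that the mean of Ccn2 lay above those of Tead1 (5.32) and Amotl2 (4.915).

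**Figure D4:**
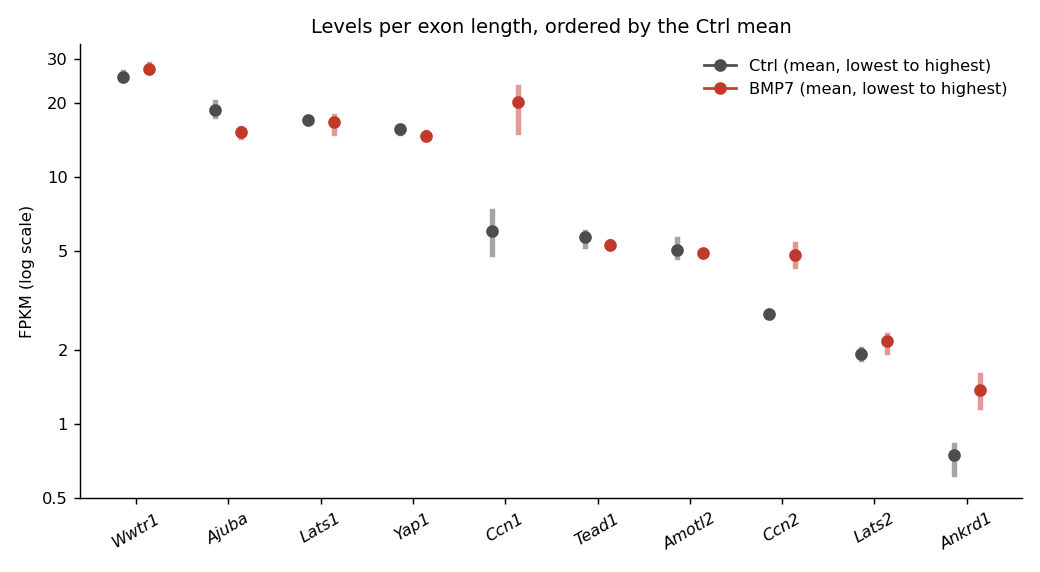
Level per exon length as deposited (FPKM, log scale) of the 10 genes in the order of their Ctrl mean, with points for the mean and bars from the lowest to the highest of 3 libraries. Ccn1 moves from 6.04 to 20.2 FPKM, while the points of the 6 genes that did not pass the test lie nearly level with each other.

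The other genes of the pathway were counted in lists by role. The kinases and upstream regulators other than Lats1 and Lats2 numbered 25, of which 24 were tested and Dchs1 was under the filter on low counts. Of these, 1 was higher and 2 were lower (12.5% called, against 11.4% of all genes), with a median log2 fold change of -0.03. Fat4, a giant cadherin placed upstream of the pathway, was at 21.4, 20.2 and 22.6 CPM in Ctrl and 34.5, 39.6 and 38.6 CPM with BMP7 (log2 fold change 0.81, edgeR adjusted p = 3.65e-06). Wwc1 (KIBRA), a scaffold that activates LATS kinases, fell from a mean of 72.5 to 54.0 CPM (-0.42, edgeR adjusted p = 0.00117). Nf2 (merlin), a membrane-linked tumour suppressor that brings LATS to the membrane, fell from 190.4 to 157 CPM (-0.28, edgeR adjusted p = 0.00383), and at -0.26 it was under the fold threshold without Ctrl replicate 2 and without Ctrl replicate 3. The BMP7 libraries did not overlap the Ctrl libraries in 7 of the 24 genes tested, among them Fat4, Wwc1 and Nf2, against 29.8% of all genes. The core genes Stk3, Stk4, Sav1, Mob1a and Mob1b, which encode the MST kinases and their partners, did not pass, with log2 fold changes from -0.09 to 0.19.

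None of 15 YAP-binding and LATS-binding adaptors and STRIPAK phosphatase subunits was called, against 11.4% of all genes, with a median log2 fold change of 0.03. By the adjusted p alone, which 13.7% of all genes passed, 1 of the 15 did so, the phosphatase subunit Ppp2ca (315 CPM in Ctrl, 369.5 with BMP7, log2 fold change 0.23, edgeR adjusted p = 0.0141). The TEAD factors and Vestigial-like cofactors other than Tead1 numbered 7. Vgll1 and Vgll2 had no counts and were not tested, and of the 5 tested none was called. Tead3 came nearest, at 79.2, 82.0 and 88.9 CPM in Ctrl and 105, 98.7 and 93.7 CPM with BMP7 (0.25, edgeR adjusted p = 0.0202), a fold just under the threshold of 1.2. Counted without a fold threshold, the 0 called of these lists became 1 in each.

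Genes of a published YAP/TAZ target signature, other than the 5 that are among the 10 genes, numbered 17 and were all tested. Of these, 4 were higher and 3 were lower (41.2% called, against 11.4% of all genes), and their median log2 fold change was -0.03. The genes that rose were Gadd45a, a stress-induced regulator of growth arrest and DNA repair (5.27 to 13.3 CPM, log2 fold change 1.33, edgeR adjusted p = 3.65e-06), Igfbp3, a secreted binding protein of insulin-like growth factors (518 to 994 CPM, 0.94), Tgfb2, a TGF-beta ligand (27.6 to 45.7 CPM, 0.73), and the forkhead factor Foxf2 (6.22 to 9.95 CPM, 0.68). The genes that fell were F3, the tissue factor that starts coagulation (11.4 to 6.90 CPM, -0.71, edgeR adjusted p = 0.00157), the kinase Nuak2 (11.2 to 7.61 CPM, -0.55), and Nt5e, the ecto-nucleotidase CD73 (88.5 to 64.9 CPM, -0.45). The groups did not overlap in 8 of the 17 genes, among them all 7 called, against 29.8% of all genes. With Ccn1, Ccn2, Ankrd1, Amotl2 and Lats2 added, the signature of 22 genes had 7 higher and 3 lower (45.5% called), and its genes did not move one way.

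Ccdc80, a matrix protein of the signature, had a log2 fold change of 0.93 that did not pass (edgeR adjusted p = 0.0794). It was at 2.17, 1.33 and 1.13 CPM in Ctrl and at 1.46, 3.82 and 3.31 CPM in BMP7 replicates 1, 3 and 4, so that BMP7 replicates 3 and 4 lay above the Ctrl libraries and replicate 1 among them. For Gadd45a, 19.1% of the exon length is shared with the antisense gene E230016M11Rik, which had 32 to 52 counts per library and was not called.

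Of 6 relatives of the target genes, Ccn3, Ccn5, Ccn6 and Ankrd2 were under the filter on low counts, and Ccn4 and Ankrd23 did not pass the test, at log2 fold changes of -0.02 and -0.05. Of the CCN and ankyrin genes examined, those called were Ccn1, Ccn2 and Ankrd1. Over these lists together, without the 10 genes, 62 of 69 genes were tested, and 5 were higher and 5 lower (16.1% called, against 11.4% of all genes, median log2 fold change -0.00268).

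**Figure D5:**
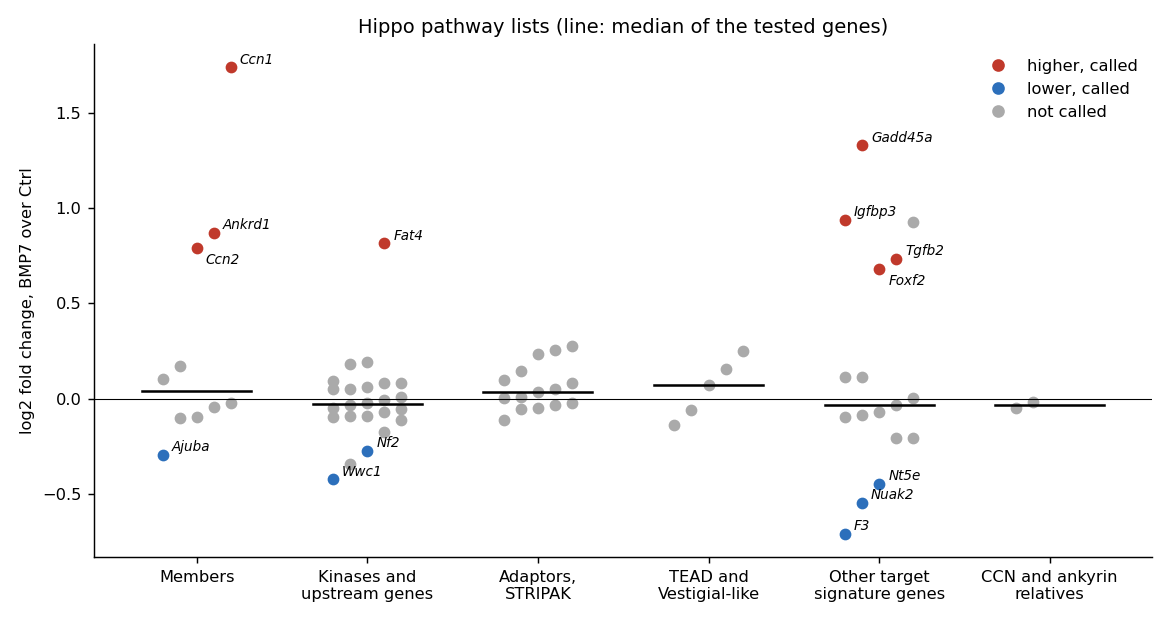
Log2 fold change, BMP7 over Ctrl, of each tested gene of the pathway lists beside the 10 genes (left), with a line for each list's median. Red and blue points passed the test and are named, and grey points did not. The medians lie between -0.03 and 0.07, and the target signature holds called genes in both directions, from Gadd45a at 1.33 to F3 at -0.71.

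The TEAD motif was also counted in the promoters of the lists. It was present in 3 of 11 signature genes, 3 of 21 kinases and upstream genes and 3 of 12 adaptors with a promoter in the RefSeq table, beside 7 of 8 of the Hippo-YAP genes and 16.6% of all genes. Of the called signature genes, Gadd45a, Igfbp3, Tgfb2, Foxf2, F3 and Nt5e had a promoter there and no match in the window. Nuak2, the other called gene, either held a match or had no promoter there.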

How the data were processed

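Poly(A) RNA of HC11 cells was sequenced in 3 BMP7 and 3 Ctrl libraries, grouped by the treatment in their labels. The authors aligned read pairs with subjunc (Subread 2.0.3 by the submitters' notes; the header names featureCounts 2.0.1) and deposited raw counts of fragments per gene, without normalization. The methods name mm10 and GENCODE vM30, while the header of the counts names an mm39 annotation, whose coordinates and exon lengths are used for the genes. Strand was not used in counting, and fragments mapping to several places or genes were left out, which lowers genes that share exons. The numbers of the BMP7 columns (1, 3 and 4) differ from those of the titles, so columns were tied to groups only.

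Counts were analysed in R 4.3.3 with edgeR 4.0.16 (filter by expression, TMM, quasi-likelihood test over 15733 genes, Benjamini-Hochberg adjustment over all of them). SE is the log2 fold change over the square root of F. Calls needed an adjusted p below 0.05 and a fold above 1.2, thresholds that the study also applied to these libraries. The study's methods name DESeq2. Ratios within pairs were tested with an exact two-sided permutation test (scipy 1.17.1). edgeR's common biological coefficient of variation was 0.0696. Counting error is largest for Ankrd1 (16.4% at its lowest count). Promoter sequences are from RefSeq (GRCm38.p6). Similar transcripts were looked for by BLAST 2.17.0 in GENCODE vM21 transcripts (95% identity over at least 100 bases): Lats2 matched Gm49361, Ccn2 matched Gm15270, Yap1 matched 3 genes and Ajuba 22 over at most 157 bases, and the other 6 none. The fit was tested on simulated counts.

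The 10 genes, the lists and the tests were chosen with earlier results of these data known. Genes named by value are the 10 and every called gene of the lists, and untested genes are named only; Id1 to Id3, the marker genes, Limd1, Wtip, the MST core genes, Ppp2ca, Tead3, Ccdc80, Ccn4 and Ankrd23 were chosen by name once their values were known. The fit was repeated with DESeq2 1.42.0, with edgeR after RLE or after upper-quartile scaling, with no filter, at least 10 counts in every library, no fold threshold or a fold of 1.5, each library left out, column numbers as a block, and, added after seeing the data, BMP7 replicate 1 alone.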

Additional observations from a re-analysis of the deposited data

How the results depend on the processing

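Ccn1 and Ccn2 stayed called and higher under all 13 alternatives run on them, at log2 fold changes of 1.61 to 2.06 and 0.71 to 0.88. Ankrd1 ranged from 0.75 to 0.99 with each library left out in turn, and did not pass with the replicate block (0.82, adjusted p = 0.0553) or with BMP7 replicate 1 alone (0.88, adjusted p = 0.0964). Ajuba ranged from -0.34 to -0.25 with each library left out, and did not pass with BMP7 replicate 1 alone (-0.27, adjusted p = 0.111). The sign of Lats1 turned without BMP7 replicate 1 (-0.0639 to 0.0415 over the libraries left out) and that of Amotl2 without Ctrl replicate 3 (-0.0854 to 0.0372). Ajuba is the only one of the 10 genes called lower, so their number called lower was 0 to 1 with a library left out, and 0 with BMP7 replicate 1 alone and at a fold over 1.5. At that fold, the kinases and upstream genes called lower went from 2 to 0, and the target signature genes called lower from 3 to 1. With a library left out, the kinases and upstream genes called lower numbered 1 to 2, the adaptors called higher 0 to 1 and the TEAD and Vestigial-like genes called higher 0 to 1. With the adjusted p alone, the adaptors and the TEAD and Vestigial-like genes called higher were 1 each. The column numbers 1 and 3 are shared by both groups, and the deviations of same-numbered libraries correlated at -0.01 and 0.12 across genes. Libraries with different numbers correlated at -0.08 to 0.10. The value for column 3 was thus the highest and lay above the threshold of 0.1 set for a block, while that for column 1 did not. These values do not settle whether the numbers mark pairs, and the main fit does not use them as pairing. Taking the column numbers as a replicate block left 1 residual degree of freedom. Ctrl replicate 2 and BMP7 replicate 4 share no number with the other group. Every value with the block, also those above, therefore rests on columns 1 and 3 for the difference between the groups. In that fit the kinases and upstream genes called lower were 1, and the adaptors and the TEAD and Vestigial-like genes called higher were 1 each. Nf2 kept its adjusted p below the threshold but fell under the fold without Ctrl replicate 2, without Ctrl replicate 3 and with the block. The cause of these changes was not tested. A fit with a library left out both lacks that library and has fewer libraries, and these cannot be told apart. The largest shift that a scaling gave to the median of all genes was -0.0182 on the log2 scale. With 37 to 83 counts per library for Ankrd1, counting error limits its precision.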
